A study of Mus musculus with 26 samples.

Results

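The accessibility of 10 immediate early genes was followed through the open chromatin of Kupffer cells, macrophages that reside in the sinusoids of the mouse liver. They were Egr1, Egr2, Egr3, Ier2, Ier3, Nr4a1, Nr4a3, Btg2, Klf2 and Klf6, and each was represented by every ATAC-seq peak that the deposited tables assigned to it as the gene with the nearest transcription start. This gave 201 of 96238 peaks in the table of the inbred strains and 398 of 213225 autosomal peaks in the table of the hybrid. ATAC-seq inserts sequencing adapters where DNA is accessible, so the tag count at a peak measures how open that site was. Male mice of 8 to 12 weeks were A/J (4 control animals), BALB/cJ (4 control, 2 LPS), C57BL/6J (4 control, 3 LPS) and CB6F1/J, the F1 hybrid of BALB/cJ and C57BL/6J (4 control, 5 LPS). LPS was given into the peritoneum at 0.1 mg per kg for 2 h, controls were not injected, and the liver was perfused and digested with flavopiridol, an inhibitor of transcription elongation, present throughout. Kupffer cells were sorted as F4/80-high, CD11b-intermediate, CD45-positive and CD146-negative cells. The comparisons asked how strain, LPS and, within the hybrid, parental allele bear on accessibility at these loci.

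Immediate early genes are transcribed within minutes of a stimulus because their promoters are already open and the factors that act on them, such as SRF bound to the CArG box, are already present. Their products then carry the response onward: the EGR proteins are zinc finger transcription factors that bind GC-rich sites, the NR4A proteins are orphan nuclear receptors that act without a known natural ligand, and the KLF proteins bind CACCC-like sites. In macrophages, LPS is sensed by TLR4, and MAP kinases and NF-kB are the main routes to these genes.

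The peaks were spread unevenly over the 10 genes, with 43 assigned to Klf6, 24 each to Btg2, Klf2 and Egr3, 20 to Ier2, 17 each to Egr1 and Nr4a1, 14 to Nr4a3, and 9 each to Egr2 and Ier3. Of the 201 peaks, 28 lay within 1 kb of the start, 76 at 1 to 10 kb and 97 farther away. The farthest Klf6 peak was at +332255 bp from the start, whereas the farthest Ier3 peak was at -22568 bp. Each peak had been called in at least 1 of 5 strain and treatment lists, and 80 of the 201 (39.8%, against 39.8% of all peaks) were in all 5. Lists from LPS animals alone held 26 (12.9%, against 10.97% of all peaks), and lists from control animals alone held 64 (31.8%, against 27.5%). The counting window was 1000 bp wide, and at 140 of the 201 peaks it overlapped the window of a neighbour, so the values of close peaks are not independent. Assignment to the nearest start says nothing of which gene a peak acts on.

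The 17 inbred libraries held 8764908 to 25420960 tags, apart from BALB/cJ control replicate 4 with 178332619. Promoter peaks were present for 12 of 12 Kupffer cell markers, with a summed normalised count of 1238 to 1456 in controls and 686 to 1060 under LPS. None was present for 6 stellate cell or 8 lymphocyte markers, and few were present for endothelium (2 of 9), hepatocytes (1 of 8), monocytes (2 of 5) and neutrophils (1 of 6). The 2 monocyte marker peaks summed to 8.05 to 26.2 in controls and 21.8 to 40.7 under LPS. Ly6c2, Ccr2 and Chil3, defining markers of monocytes, had no promoter peak. By the thresholds given below, 1 of the 2 monocyte marker peaks was higher under LPS in each strain. Of the 12 Kupffer cell marker peaks, 1 was higher and 2 lower in C57BL/6J, and 0 were higher and 6 lower in BALB/cJ. Headers of the deposited peak lists of single libraries dated all inbred controls 20210213, the BALB/cJ LPS libraries 20210331 and the C57BL/6J LPS libraries 20210407. They named fasting for the LPS libraries alone, although the methods describe fasting in both arms. Trimming of reads was named for the controls alone, and in C57BL/6J a shift of coordinates was named for the LPS libraries alone. The deposited values were whole counts for LPS libraries and expected counts, described below, for controls. Effects of LPS, header date, fasting and these processing differences therefore cannot be told apart. C57BL/6J LPS replicate 1 stood apart with a weaker response: over the 15164 peaks higher under LPS in BALB/cJ its median log2 ratio to its own controls was 0.63, against 1.504 and 1.646 in replicates 2 and 3. Results that rest on this library are therefore also given without it.

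Sequences of 6 peaks that rose under LPS and 1 that differed with strain are shown first, because results described below refer to the letters they hold. All are from the reference genome GRCm38.p6 (mm10), read on the plus strand over the called peak, and none overlaps an annotated exon. Capitals mark a match to TGANTCA, the AP-1 site bound by FOS and JUN proteins, in the first 6, and GAGGAAGT, a site of the macrophage factor PU.1, in the last.
Klf6 at chr13:5886897-5887097: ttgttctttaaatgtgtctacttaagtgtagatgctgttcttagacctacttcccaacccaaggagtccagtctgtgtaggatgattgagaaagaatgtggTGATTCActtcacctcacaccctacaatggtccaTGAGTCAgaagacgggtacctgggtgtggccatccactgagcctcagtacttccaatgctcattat
Klf6 at chr13:6102392-6102592: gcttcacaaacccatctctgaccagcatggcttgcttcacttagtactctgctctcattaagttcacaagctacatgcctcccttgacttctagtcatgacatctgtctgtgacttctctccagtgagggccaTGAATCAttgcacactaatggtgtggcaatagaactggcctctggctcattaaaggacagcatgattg
Klf6 at chr13:6167185-6167385: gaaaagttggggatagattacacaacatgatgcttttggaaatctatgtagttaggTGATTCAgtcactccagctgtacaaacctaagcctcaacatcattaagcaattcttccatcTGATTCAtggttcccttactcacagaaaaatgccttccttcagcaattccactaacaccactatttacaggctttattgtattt
Klf6 at chr13:6191991-6192191: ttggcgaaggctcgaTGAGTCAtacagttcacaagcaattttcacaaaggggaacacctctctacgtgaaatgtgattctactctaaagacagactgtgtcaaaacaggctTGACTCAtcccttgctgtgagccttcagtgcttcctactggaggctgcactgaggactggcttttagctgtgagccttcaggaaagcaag
Ier3 at chr17:35799045-35799245: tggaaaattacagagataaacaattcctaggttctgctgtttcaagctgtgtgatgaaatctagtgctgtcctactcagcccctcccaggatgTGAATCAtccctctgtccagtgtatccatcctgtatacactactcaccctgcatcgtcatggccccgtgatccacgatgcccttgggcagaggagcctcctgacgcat
Klf2 at chr8:72296646-72296846: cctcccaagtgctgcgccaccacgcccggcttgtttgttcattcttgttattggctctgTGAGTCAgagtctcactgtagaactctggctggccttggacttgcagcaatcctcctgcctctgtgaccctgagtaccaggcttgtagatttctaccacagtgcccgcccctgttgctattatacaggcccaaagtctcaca
Nr4a1 at chr15:101252685-101252885: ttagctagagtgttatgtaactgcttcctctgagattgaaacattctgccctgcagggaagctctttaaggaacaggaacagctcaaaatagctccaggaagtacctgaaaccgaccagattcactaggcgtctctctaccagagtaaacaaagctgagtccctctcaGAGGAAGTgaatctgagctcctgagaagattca

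Searched on both strands, TGANTCA occurred in 14.3% of all 96238 peaks and in 26 of the 201 peaks of the 10 genes. Among peaks called higher under LPS in both strains it occurred in 9 of 17 of theirs and in 51.9% of the 8715 such peaks genome-wide. Among peaks called lower in both strains it occurred in 0 of 21 of theirs and in 2.35% of 4598, and the 1 lower peak that held it was called in BALB/cJ alone. The 10 genes therefore held AP-1 letters about as often as other peaks of the same response. The CArG box occurred in 1.14% of all peaks and in 8 of the 201, among them 3 of 32 called lower in C57BL/6J and 3 of 41 in BALB/cJ (1.21% and 1.12% of all peaks called lower). Other letters were rare among the 201 peaks: TGACGTCA, the cyclic AMP response element, was in 1 (0.826% of all peaks), GCGNGGGCG, the EGR site, in 6 (1.92%), GGG followed after any 2 bases by TTTCC, a form of the NF-kB site, in 2 (1.91%) and GAGGAAGT in 13 (8.61%). A match describes the letters of a window and no more.

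In the inbred strains under LPS, chromatin was less accessible in and around most of these genes and more accessible far from some of them. The hybrid, described below, did not show the falls within 1 kb of the start beyond those of all peaks. A peak was called at a Benjamini-Hochberg adjusted p under 0.05 over all peaks tested (edgeR quasi-likelihood test) with an absolute log2 ratio over 1, and errors after log2 ratios are standard errors. In C57BL/6J, 18 of the 194 peaks tested were called higher under LPS, against 12.3% of all peaks, and 32 were called lower, against 8.07%. In BALB/cJ, 27 of 196 were called higher, against 16.2%, and 41 lower, against 11.3%. The median log2 ratio was -0.43 in C57BL/6J and -0.50 in BALB/cJ, whereas over all peaks it was -0.03 and -0.07. Without replicate 1 of the C57BL/6J LPS group the counts there were 20 higher and 41 lower, without replicate 2 they were 14 and 20, and without replicate 3 they were 8 and 16. In these sorted populations, fewer cells with an open site and less opening per cell cannot be told apart.

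As over all peaks, the direction went with distance from the start. Within 1 kb, 0 peaks were called higher and 7 lower in each strain, of 28 tested in C57BL/6J and 27 in BALB/cJ, while 2.85% and 5.49% of all peaks at that distance were higher and 15.6% and 20.0% lower. At 1 to 10 kb, 21.3% of the peaks in C57BL/6J and 28.0% in BALB/cJ were lower, against 6.78% and 9.07% of all peaks at that distance. Beyond 10 kb, 16.5% and 24.5% were higher, against 16.7% and 20.2% of all, so the share of rises in C57BL/6J was close to that of all peaks. Falls at that distance were more frequent than over all peaks in both strains, at 9.89% in C57BL/6J and 13.8% in BALB/cJ, against 5.36% and 8.72%. Inside the gene bodies, 8 of 32 peaks in C57BL/6J and 7 of 32 in BALB/cJ were lower, with medians of -1.13 and -1.08, whereas 5.77% and 8.52% of all gene body peaks were lower and their medians were 0.10 and 0.08. Many calls were shared between strains: 17 peaks were higher in both (94.4% of the C57BL/6J calls, 63.0% of the BALB/cJ calls). Another 21 were lower in both (65.6% and 51.2%), and 0 were called in opposite directions. Over all peaks, 8715 rises were shared, out of 11323 C57BL/6J calls and 15164 BALB/cJ calls. Shared falls numbered 4598, out of 7421 and 10584 calls. Sharing was therefore not particular to these genes. Both LPS groups also differed from their controls in header date and processing, as given above.

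**Figure D1:**
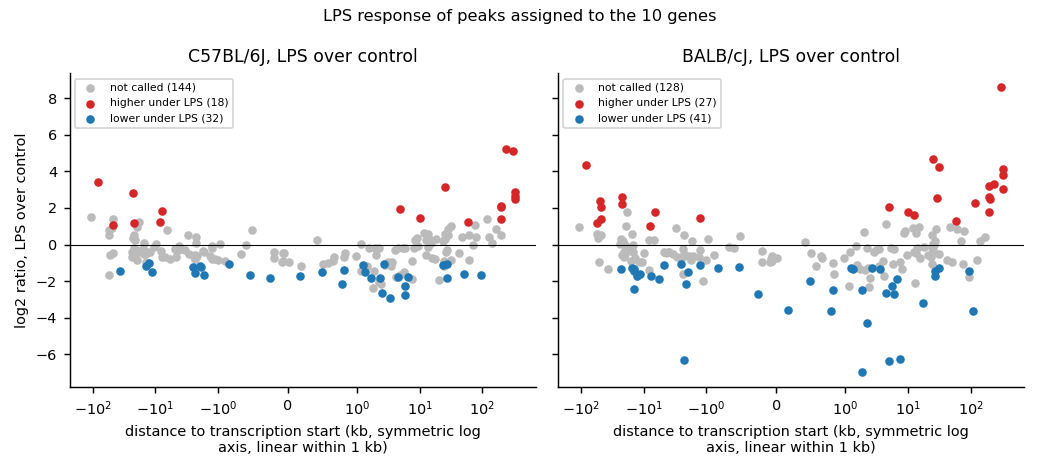
LPS response of every tested peak of the 10 genes against its distance to the transcription start (kb, symmetric log axis that is linear within 1 kb), with 1 panel for each inbred strain and the log2 ratio of LPS over control on the vertical axis. Blue points (called lower, 32 and 41) lie mostly near the start and red points (called higher, 18 and 27) mostly far from it. Ratios beyond -6 and above 8 in BALB/cJ come from peaks where all libraries of 1 group were at 0, so their size is set by the fit.

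Egr1, a zinc finger factor induced by growth factors and stress, lost signal over its start. The peak at +180 bp held 448, 632, 358 and 382 normalised counts in the 4 C57BL/6J controls and 265, 118 and 40.6 in the 3 LPS libraries. In BALB/cJ it held 208, 489.5, 166 and 77.4 in controls and 13.1 and 25.5 under LPS. The groups did not overlap in either strain, and the log2 ratio was -1.73 ± 0.42 (adjusted p = 0.00233) in C57BL/6J, -2.48 ± 0.44 (adjusted p = 5.34e-05) without its LPS replicate 1, and -3.58 ± 0.61 (adjusted p = 2.68e-05) in BALB/cJ. The peak in exon 2, at +2221 bp, held 89.3, 189, 23.4 and 33.2 in C57BL/6J controls and 61.8, 5.94 and 1.59 under LPS, and in BALB/cJ it held 46.1, 113, 16.1 and 12.3 in controls and 2.61 and 1.76 under LPS. The LPS libraries of BALB/cJ were all below their controls and in C57BL/6J replicate 1 lay within the range of the controls. It was called lower in BALB/cJ (-4.31 ± 1.33, adjusted p = 0.0117) and not in C57BL/6J (-2.05 ± 0.81, adjusted p = 0.0578), where it was called without replicate 1 (-4.41 ± 1.01, adjusted p = 0.00102). The peak at +4926 bp was at 0 in both BALB/cJ LPS libraries and at 7.37 ± 6.43 (SD, n = 4) in controls, at least 5.62-fold lower taking 3 counts over the group as the floor. A distal peak at +27509 bp fell in both strains (-1.07 ± 0.41, adjusted p = 0.0479 in C57BL/6J, and -1.70 ± 0.47, adjusted p = 0.00526 in BALB/cJ), and the 1 rise was in BALB/cJ at -6560 bp, from 5.17 ± 6.44 (n = 4) to 14.03 ± 7.52 (n = 2) (1.78 ± 0.69, adjusted p = 0.0441).

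Egr2, an EGR gene with roles in myelination and in alternatively activated macrophages, had its strongest call in both strains at the promoter. The peak at -253 bp (chr10:67537516-67537716) held 98.6, 128, 98.8 and 108 normalised counts in C57BL/6J controls and 36.5, 34.0 and 23.1 under LPS. BALB/cJ went from 51.4, 110.2, 176 and 78.3 in controls to 11.3 and 20.2 under LPS. All LPS libraries lay below all controls, and the peak fell 3.5-fold in C57BL/6J (-1.81 ± 0.33, adjusted p = 0.000101) and 6.47-fold in BALB/cJ (-2.69 ± 0.41, adjusted p = 6.12e-06). Farther out, the intergenic peak at -47824 bp rose from 35.2 ± 7.10 (SD, n = 4) to 73.0 ± 9.59 (n = 3) in C57BL/6J (1.05 ± 0.31, adjusted p = 0.0112) and from 34.8 ± 12.5 (n = 4) to 98.5 ± 12.4 (n = 2) in BALB/cJ (1.42 ± 0.33, adjusted p = 0.000949).

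Egr3, which shares the EGR zinc fingers, showed both patterns upstream. The peak at -11321 bp held 459, 502, 545 and 483 normalised counts in C57BL/6J controls and 242, 138 and 143 under LPS. In BALB/cJ the values were 415, 459, 447 and 334 in controls and 156 and 113 under LPS. The groups were well apart in both strains (-1.53 ± 0.18, adjusted p = 3.23e-07 in C57BL/6J and -1.62 ± 0.22, adjusted p = 7.91e-07 in BALB/cJ). The peak at -2508 bp also fell in both (-1.26 ± 0.17, adjusted p = 1.92e-06 and -1.08 ± 0.20, adjusted p = 8.94e-05). In contrast, the peak at -82468 bp, inside intron 4 of the neighbouring gene Pebp4, held 1.74, 0, 5.20 and 3.99 in C57BL/6J controls and 2.81, 27.2 and 56.5 under LPS. BALB/cJ held 3.96, 1.95, 4.03 and 0 in controls and 26.1 and 25.5 under LPS. It rose in both strains (3.45 ± 0.83, adjusted p = 0.00214 and 4.33 ± 0.97, adjusted p = 0.000714), although replicate 1 of the C57BL/6J LPS group stayed at the level of the controls. BALB/cJ alone had 4 further called rises, at -55068, -48878, -47816 and -1240 bp, with log2 ratios of 1.16, 2.37, 2.08 and 1.43. The corresponding log2 ratios in C57BL/6J were 0.77, 0.92, 1.41 and -0.08, and none of the 4 differences between strains passed the test of the difference itself.

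Ier2, which encodes a short-lived nuclear protein, lost signal over its single exon. The peak at +491 bp (chr8:84662261-84662461) held 113, 160.5, 109 and 102 normalised counts in C57BL/6J controls and 73.0, 37.4 and 21.5 under LPS (-1.52 ± 0.37, adjusted p = 0.00247). BALB/cJ went from 73.8, 155, 75.2 and 38.1 in controls to 20.9 and 20.2 under LPS (-2.01 ± 0.46, adjusted p = 0.00099). The LPS libraries were below all controls in both strains. None of the 16 Ier2 peaks tested in C57BL/6J or the 18 tested in BALB/cJ was called higher under LPS, and 4 and 5 were called lower. The peak at +2698 bp fell in both (-1.08 ± 0.37, adjusted p = 0.0272 for C57BL/6J and -1.28 ± 0.40, adjusted p = 0.0116 for BALB/cJ), as did the far peak at +95168 bp (-1.65 and -1.47 on the log2 scale).

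Ier3, a stress-inducible regulator of apoptosis, went the other way in its calls alone. Of its 9 peaks, 0 were called lower in either strain and 3 were called higher in C57BL/6J, against 2 in BALB/cJ. The median log2 ratio of its peaks was -0.39 in C57BL/6J and 0.23 in BALB/cJ. Its promoter peak did not rise, with means of 247 in C57BL/6J controls and 177 under LPS, and 228 and 121 in BALB/cJ. The intergenic peak at -22568 bp held 4.06, 12.8, 7.80 and 9.31 normalised counts in C57BL/6J controls and 32.3, 62.8 and 71.7 under LPS. The BALB/cJ counts were 9.23, 12.7, 2.69 and 5.34 in controls and 38.3 and 47.5 under LPS. Every LPS library was above every control, and the peak rose 7.11-fold in C57BL/6J (2.83 ± 0.45, adjusted p = 1.78e-05) and 5.97-fold in BALB/cJ (2.58 ± 0.47, adjusted p = 6.73e-05). A pair of peaks sat closer. The peak at -7835 bp rose in C57BL/6J (1.84 ± 0.33, adjusted p = 8.04e-05) and in BALB/cJ (1.01 ± 0.35, adjusted p = 0.0239). Its neighbour at -8303 bp held 85.8 ± 4.32 (SD, n = 4) in C57BL/6J controls and 204 ± 70.5 (n = 3) under LPS (1.26 ± 0.21, adjusted p = 3.16e-05), and 109.8 ± 19.1 (n = 4) and 127 ± 10.8 (n = 2) in BALB/cJ (0.23 ± 0.23, adjusted p = 0.471). Of all 10 genes' peaks, this one had the smallest adjusted p for a strain difference in the LPS response (log2 difference 1.02 ± 0.32, adjusted p = 0.326), which missed the threshold.

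Nr4a1, an orphan nuclear receptor that limits inflammatory gene expression in macrophages, had no peak called higher under LPS in either strain, 4 called lower in C57BL/6J and 7 in BALB/cJ. The peak in intron 1, at +790 bp (chr15:101267536-101267736), held 129.9, 191, 66.3 and 47.9 normalised counts in C57BL/6J controls and 57.6, 11.04 and 10.3 under LPS. For BALB/cJ the counts were 60.6, 86.8, 17.4 and 18.2 in controls and 2.61 and 4.40 under LPS. The BALB/cJ groups did not overlap, while in C57BL/6J the LPS replicate 1 lay within the range of the controls (-2.18 ± 0.58, adjusted p = 0.00482 in C57BL/6J and -3.61 ± 0.90, adjusted p = 0.0021 in BALB/cJ). Upstream, the peak printed above with its PU.1 letters, at -14061 bp, held 131, 135, 156 and 176 in C57BL/6J controls and 94.1, 58.6 and 47.0 under LPS (-1.19 ± 0.25, adjusted p = 0.000514). In BALB/cJ the same peak went from 98.9, 85.8, 76.5 and 96.2 in controls to 20.0 and 13.2 under LPS (-2.43 ± 0.33, adjusted p = 1.37e-06). Both strains' LPS libraries were below their controls. The peaks at -2253 and +1827 bp were at 0 in both BALB/cJ LPS libraries, at least 5.61-fold and 8.40-fold lower than controls with the floor used above.

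Nr4a3, a related orphan receptor, fell at a strong upstream peak. At -1952 bp (chr4:48043253-48043453) it held 518, 582, 615 and 526 normalised counts in C57BL/6J controls and 322, 204 and 230.2 under LPS. BALB/cJ went from 509, 478, 579.9 and 489 in controls to 179.5 and 176 under LPS. No LPS library reached a control, and the log2 ratio was -1.16 ± 0.14 (adjusted p = 4.00e-07) in C57BL/6J and -1.53 ± 0.17 (adjusted p = 3.83e-08) in BALB/cJ. The weaker peak at -536 bp fell as well (-1.66 ± 0.35, adjusted p = 0.000551 and -1.25 ± 0.38, adjusted p = 0.0107), and these were the only calls among the 14 Nr4a3 peaks in either strain.

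Btg2, an antiproliferative gene whose product promotes mRNA deadenylation, fell along its body and beyond its end. Of its 24 peaks, 6 were called lower in C57BL/6J, 9 in BALB/cJ, and 0 higher in either strain. The intronic peak at +1324 bp (chr1:134077731-134077931) held 74.2, 86.7, 101 and 86.4 normalised counts in C57BL/6J controls and 43.5, 23.8 and 27.1 under LPS (-1.50 ± 0.28, adjusted p = 0.000149). In BALB/cJ it held 65.9, 67.3, 98.0 and 76.8 in controls and 30.5 and 29.9 under LPS (-1.34 ± 0.32, adjusted p = 0.00123). The LPS libraries were lowest in both strains. In C57BL/6J the called log2 ratios reached -2.94, at +3394 bp over the 3' untranslated region. Past the gene end, the peak at +5932 bp fell from 11.5 ± 3.67 (SD, n = 4) to 1.73 ± 1.51 (n = 3) in C57BL/6J (-2.77 ± 0.69, adjusted p = 0.00304) and likewise in BALB/cJ (-2.73 ± 0.77, adjusted p = 0.00576). The peak at +7497 bp was at 0 in both BALB/cJ LPS libraries, at least 5.16-fold lower than controls. A strong upstream Btg2 peak, at -14021 bp, held 452 ± 75.6 (SD, n = 4) in BALB/cJ controls and 175 ± 32.1 (n = 2) under LPS (-1.36 ± 0.18, adjusted p = 1.08e-06). In C57BL/6J the same peak missed the fold threshold (-0.97 ± 0.16, adjusted p = 2.38e-05) and passed it without LPS replicate 1 (-1.06 ± 0.17, adjusted p = 1.35e-05).

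Klf2, a factor that restrains inflammatory gene expression in macrophages and endothelium, had 4 of 23 peaks called lower in C57BL/6J and 8 of 23 in BALB/cJ, with 1 called higher in each. Near the 3' end, the peak at +3550 bp (chr8:72322512-72322712) held 262, 355, 357 and 326 normalised counts in BALB/cJ controls and 120.2 and 134 under LPS (-1.35 ± 0.18, adjusted p = 5.37e-07). In C57BL/6J it held 308, 308, 294 and 312 in controls and 188, 146 and 147 under LPS, a fall just under the fold threshold (-0.94 ± 0.15, adjusted p = 1.99e-05). The intronic peak at +1239 bp and the peak at +6563 bp past the gene end fell in both strains, by log2 ratios of -1.12 and -1.77 in C57BL/6J against -1.28 and -1.88 in BALB/cJ. The C57BL/6J call at +6563 bp was lost without LPS replicate 1 (-1.65 ± 0.65, adjusted p = 0.0518). The largest C57BL/6J fall was at +2324 bp over the 3' untranslated region (-1.84 ± 0.65, adjusted p = 0.0312). The 1 rise was the AP-1 peak printed above, at -22316 bp, which held 7.54, 11.2, 3.90 and 13.3 in C57BL/6J controls and 22.5, 22.1 and 15.9 under LPS (1.18 ± 0.42, adjusted p = 0.0325). BALB/cJ held 7.91, 13.7, 14.8 and 15.6 in controls and 68.8 and 56.3 under LPS (2.21 ± 0.39, adjusted p = 4.13e-05). LPS libraries were above all controls in both strains, but the C57BL/6J call was lost without LPS replicate 1 (1.14 ± 0.45, adjusted p = 0.0534).

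Klf6, a factor that promotes inflammatory gene expression in macrophages, held most of the rises: 12 of the 18 in C57BL/6J and 17 of the 27 in BALB/cJ. The peak at +25508 bp held 3.48, 0, 2.60 and 1.33 normalised counts in C57BL/6J controls and 7.02, 19.5 and 32.7 under LPS. In BALB/cJ it went from 6.59, 0.975, 2.69 and 1.38 in controls to 50.5 and 65.1 under LPS. Every LPS library exceeded every control of its strain, 8.95-fold on average in C57BL/6J (3.16 ± 0.68, adjusted p = 0.000679) and 25.5-fold in BALB/cJ (4.67 ± 0.65, adjusted p = 1.74e-06). Inside the gene, the peak in intron 2 at +4935 bp rose from 15.03 ± 2.39 (SD, n = 4) to 56.3 ± 46.8 (n = 3) in C57BL/6J (1.94 ± 0.49, adjusted p = 0.00292) and to a like extent in BALB/cJ (2.08 ± 0.50, adjusted p = 0.00161). Its neighbour over the 3' untranslated region, at +5812 bp, was called lower in C57BL/6J (-2.26 ± 0.75, adjusted p = 0.0241) and not in BALB/cJ (-1.04 ± 0.76, adjusted p = 0.311). A run of 4 peaks from +198609 to +200987 bp rose in BALB/cJ by log2 ratios of 3.198, 1.79, 2.59 and 2.48. The strongest of them, at +200987 bp (chr13:6062376-6062576), held 16.8, 19.3, 23.4 and 11.97 in C57BL/6J controls and 29.5, 62.0 and 125 under LPS (2.05 ± 0.37, adjusted p = 8.55e-05).

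The Klf6 peaks farthest from the gene were nearly closed before LPS. At +305796 bp the 4 BALB/cJ controls held 0 and the LPS libraries 34.9 and 29.9, at least 46.3-fold higher with the floor used above. In C57BL/6J that peak held 0.580, 0, 0 and 0 in controls and 1.40, 16.98 and 14.3 under LPS (5.11 ± 1.02, adjusted p = 0.000391). At +330602 bp the values were 5.27, 0, 4.03 and 4.70 in BALB/cJ controls and 73.2 and 63.3 under LPS (4.13 ± 0.53, adjusted p = 4.29e-07), and the C57BL/6J peak rose too (2.85 ± 0.53, adjusted p = 0.000127). At +241003 bp the C57BL/6J counts went from 0.580, 0, 0 and 0 in controls to 1.40, 7.64 and 27.1 under LPS (5.25 ± 1.14, adjusted p = 0.000749). Every LPS library was above the controls, but the 0.580 and the 1.40 each rest on a few tags. The BALB/cJ peak rose as well (3.29 ± 0.80, adjusted p = 0.00164). Both +305796 and +330602 bp carry 2 copies each of TGANTCA in the sequences above. The window of the first of these was shared with no other peak. Not all distal Klf6 peaks rose: at +26866 bp the count fell from 77.5 ± 20.6 (SD, n = 4) to 21 ± 6.13 (n = 3) in C57BL/6J (-1.84 ± 0.30, adjusted p = 2.72e-05) and from 82.2 ± 29.0 (n = 4) to 29.3 ± 1.66 (n = 2) in BALB/cJ (-1.47 ± 0.33, adjusted p = 0.000675), although it neighbours the rising peak at +25508 bp.

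**Figure D2:**
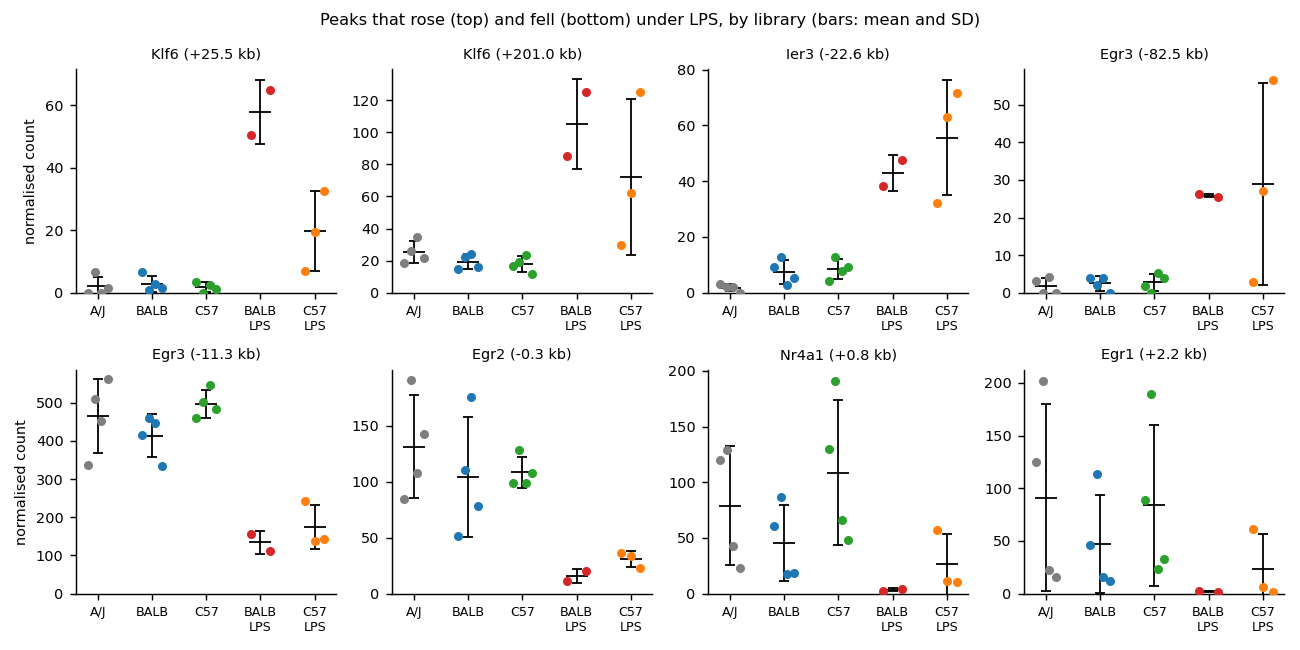
Normalised ATAC-seq counts (vertical axes, from 0) in each of the 17 inbred libraries at 8 peaks, 4 that rose under LPS (top row) and 4 that were called lower in at least 1 strain (bottom row), with points for animals and black bars for the mean and SD of each group. C57BL/6J LPS replicate 1 is the lowest orange point in the top row and the highest in the bottom row at Egr1, Egr2, Egr3 and Nr4a1.

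The promoter peak of each gene, its strongest peak within 1 kb of the start, was among the more open promoters in these cells, from percentile 52.3 for Egr2 to 98.6 for Klf6 among the 12532 genes with such a peak. In C57BL/6J, 2 of the 10 promoter peaks were called lower under LPS and 0 higher, and in BALB/cJ the counts were the same, with Egr1 and Egr2 the called genes in both. The median log2 ratio of the 10 was -0.80 in C57BL/6J and -0.84 in BALB/cJ. Promoter peaks of all genes fell too, with medians of -0.41 and -0.52, and 1967 of 12365 were called lower in C57BL/6J and 2848 of 12419 in BALB/cJ. Klf6, the most open of the 10, held 566 ± 92.8 (SD, n = 4) in C57BL/6J controls and 341 ± 16.4 (n = 3) under LPS, a change that passed the p threshold and not the fold threshold (-0.73 ± 0.13, adjusted p = 0.000114). Klf2 passed the same threshold alone, from 616 ± 81.5 (n = 4) to 316 ± 38.7 (n = 3) (-0.96 ± 0.14, adjusted p = 4.16e-06). The Egr3 promoter held 193, 209, 219.8 and 154 in C57BL/6J controls and 226, 188 and 151 under LPS. These groups overlapped, with a log2 ratio of -0.05 ± 0.21 (adjusted p = 0.889), and in BALB/cJ the ratio was -0.19 ± 0.24 (adjusted p = 0.571).

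The 5 groups fell in a similar order at most promoters. BALB/cJ LPS was lowest at 10 of 10, and C57BL/6J LPS was next lowest at all but Egr3. Promoter peaks of all genes leaned the same way. Their median log2 ratio of C57BL/6J LPS over BALB/cJ LPS was 0.21, against 0.33 for these 10. Among controls, C57BL/6J was highest at Egr1, Nr4a1, Nr4a3, Btg2 and Klf2 and A/J at Egr2, Ier2, Ier3 and Klf6, with both at 194 for Egr3, but the ranges of the neighbouring control groups overlapped at each gene except Ier2, where A/J (246 ± 14.6, SD, n = 4) lay above BALB/cJ (184 ± 22.9, n = 4). Across the 17 libraries, which share the treatment, header date and depth differences given above, the promoter peaks most like those of the 10 genes were Junb for Egr1 (r = 0.973), Ints13 for Egr2 (0.980), Lrif1 for Egr3 (0.885), Atl3 for Ier2 (0.962) and Ptpn23 for Ier3 (0.942). For the others they were 4632404H12Rik for Nr4a1 (0.964), Slc25a51 for Nr4a3 (0.882), Glyr1 for Btg2 (0.967), Scarb2 for Klf2 (0.972) and Fam207a for Klf6 (0.989). Within the 10 genes, Nr4a1 and Btg2 were closest (r = 0.951).

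**Figure D3:**
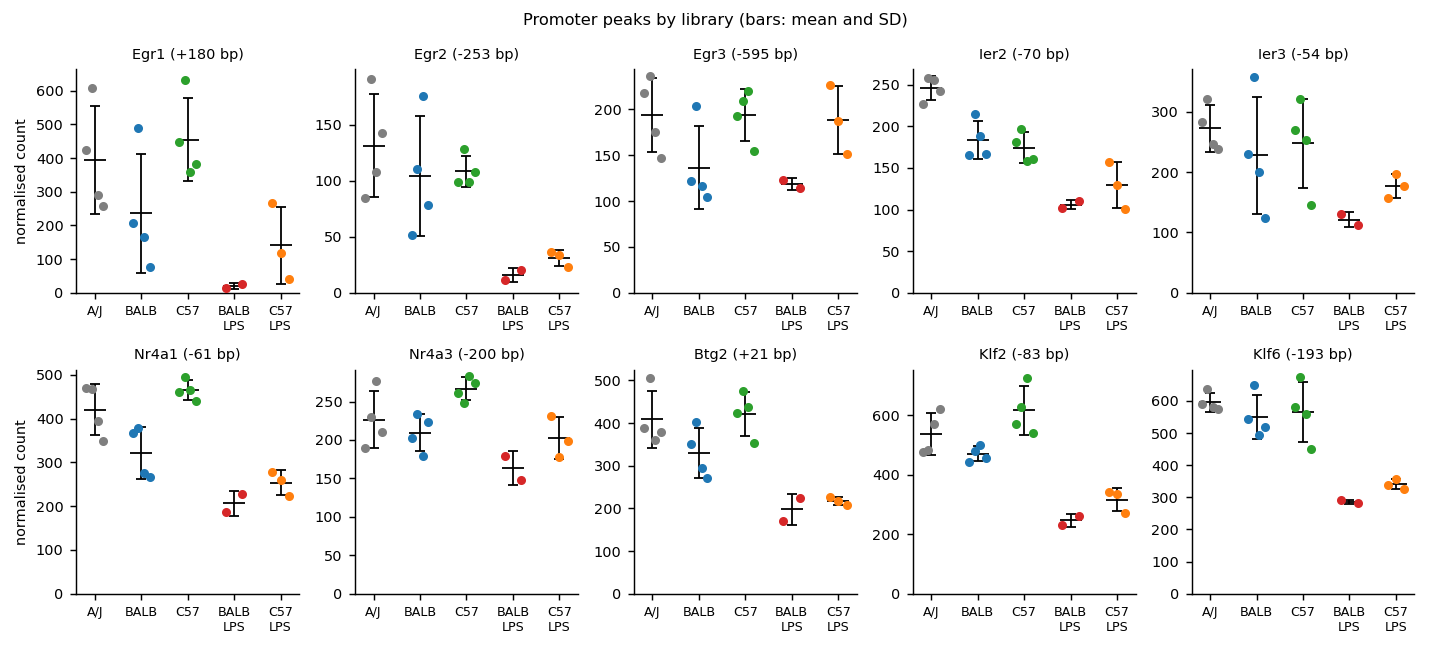
Normalised ATAC-seq counts (vertical axes, from 0) at the promoter peak of each of the 10 genes in the 17 inbred libraries, with the distance to the start in bp in each title, points for animals and bars for mean and SD. The LPS groups lie lowest at most genes, the BALB/cJ LPS mean is the lowest of the 5 at every gene, and the Egr3 groups overlap.

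Other genes of the pathway had calls in both directions, beside 12.3% of all peaks higher and 8.07% lower for C57BL/6J, and 16.2% higher and 11.3% lower for BALB/cJ. A list of 33 further immediate early genes, such as the FOS, JUN and DUSP families, had 698 peaks from 31 genes, of which 86 of 671 tested were higher and 90 lower in C57BL/6J, and 105 of 682 were higher and 149 lower in BALB/cJ. Their medians were -0.23 and -0.29. Of their 31 promoter peaks, 9 were called lower in C57BL/6J, 16 were in BALB/cJ, and 0 were higher, with medians of -0.882 and -1.003. The upstream and feedback regulators (18 genes such as Srf, the Elk factors and the NAB corepressors) had 20 of 193 peaks higher and 20 lower in C57BL/6J, and 28 of 198 higher and 27 lower in BALB/cJ. The shares called higher were near those of all peaks in both lists. The shares called lower were above those of all peaks in both strains, more so for the further immediate early genes than for the regulators. Of the tested peaks of the genes followed here, 16.5% were lower in C57BL/6J and 20.9% in BALB/cJ. Their excess of falls was thus shared by the further immediate early genes.

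At rest, the 3 inbred strains differed at few of these peaks. Between C57BL/6J and BALB/cJ, 5 of 120 tested peaks were called higher in C57BL/6J, against 3.14% of all peaks, and 2 lower, against 4.16%. Between A/J and BALB/cJ, 1 of 120 was higher in A/J, against 1.58%, and 3 lower, against 3.00%. Between A/J and C57BL/6J, 1 of 120 was higher in A/J, against 3.29%, and 6 lower, against 3.87%. The strain comparisons share control animals, so the same libraries enter more than one of them. These counts are small and moved when single BALB/cJ controls were left out: without replicate 2 they were 11 against C57BL/6J and 9 against A/J, and without replicate 3 they were 4 and 2. Without replicate 4, much the deepest library, they were 6 and 4. With all libraries thinned to the smallest, the totals of the 3 comparisons were 4, 2 and 3.

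Among peaks with enough tags to test, the largest strain difference was at an Ier2 peak at +95168 bp (chr8:84567584-84567784), which lies in exon 21 of Cacna1a, a calcium channel gene. It held 16.2, 12.8, 20.8 and 18.6 normalised counts in C57BL/6J controls, 100.2, 86.8, 138 and 130.5 in BALB/cJ and 78.6, 75.5, 59.0 and 105 in A/J. C57BL/6J was far below the others, with log2 ratios of -2.73 ± 0.27 (adjusted p = 1.48e-09) against BALB/cJ and, for A/J against C57BL/6J, 2.21 ± 0.28 (adjusted p = 2.64e-07). Another Ier2 peak, at +23426 bp (chr8:84639326-84639526) over the last exon of Cacna1a, went the opposite way, at 196, 323, 241 and 153 in C57BL/6J, with 117, 162, 52.4 and 82.7 in BALB/cJ and 58.6, 101, 77.3 and 57.9 in A/J. C57BL/6J was the highest on average, with replicate 4 inside the BALB/cJ range (1.14 ± 0.24, adjusted p = 0.00115 against BALB/cJ).

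Egr1 and Egr3 had upstream peaks that were more open in C57BL/6J. At -3033 bp from Egr1 the counts were 70.2, 22.5, 55.9 and 31.9 in C57BL/6J, with 11.9, 21.4, 9.40 and 16.2 in BALB/cJ and 12.3, 26.3, 6.10 and 15.7 in A/J. Every C57BL/6J library was above every BALB/cJ library (1.60 ± 0.37, adjusted p = 0.00245), and 1 of them overlapped A/J. The Egr3 peak at -2508 bp held 382, 481, 378 and 384 in C57BL/6J, against 170.1, 263, 156 and 204 in BALB/cJ (1.03 ± 0.15, adjusted p = 5.24e-06), with no overlap. Its neighbour at -2911 bp was also higher (1.24 ± 0.35, adjusted p = 0.0183), but its window overlaps that of the stronger peak.

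Among the remaining strain calls, Nr4a1 at -19787 bp was higher in C57BL/6J than in BALB/cJ (1.23 ± 0.36, adjusted p = 0.0248), and Klf2 at +31881 bp, within intron 22 of Eps15l1, was lower (-1.76 ± 0.40, adjusted p = 0.00263). Nr4a1 at -14061 bp held 149 ± 20.6 (SD, n = 4) in C57BL/6J, 89.3 ± 10.2 in BALB/cJ and 65.0 ± 18.3 in A/J (n = 4 each). A/J was called lower than C57BL/6J at that site (-1.22 ± 0.23, adjusted p = 0.00032), and the difference between C57BL/6J and BALB/cJ was under the fold threshold (0.73 ± 0.22, adjusted p = 0.0262). A/J also stood lowest at Klf2 -1743 bp (-1.49 ± 0.31, adjusted p = 0.00162 against BALB/cJ) and Ier3 -7835 bp (-1.38 ± 0.36, adjusted p = 0.0146 against BALB/cJ), and highest at Klf6 +59059 bp (1.34 ± 0.41, adjusted p = 0.0466 against BALB/cJ). Egr3 -55068 bp was lower in A/J than in BALB/cJ (-1.05 ± 0.26, adjusted p = 0.00798), and Klf2 -23830 bp and Nr4a3 -970 bp were lower in A/J than in C57BL/6J (-1.21 ± 0.38, adjusted p = 0.0338, and -1.31 ± 0.36, adjusted p = 0.0135).

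Under LPS, 5 of 122 peaks were called higher in C57BL/6J than in BALB/cJ, against 2.45% of all peaks, and 2 lower, against 2.83%. The Egr1 start peak led them, at 265, 118 and 40.6 in C57BL/6J, against 13.1 and 25.5 in BALB/cJ (2.82 ± 0.63, adjusted p = 0.00313), with the groups apart and the highest value in C57BL/6J replicate 1. Without that library the Egr1 +180 bp log2 ratio was 2.03. Nr4a1 was called higher at 2 of its upstream peaks, with 1.97 ± 0.35 (adjusted p = 0.000187) at -14061 bp and 1.24 ± 0.22 (adjusted p = 0.000278) at -12749 bp. Egr1 -5769 bp (1.40 ± 0.43, adjusted p = 0.0467) and Klf6 +127128 bp (1.74 ± 0.51, adjusted p = 0.0344) completed the rises. Ier2 +95168 bp remained lower in C57BL/6J, at 5.62, 4.25 and 6.37 against 45.3 and 36.9 (-2.91 ± 0.40, adjusted p = 3.38e-06), and Klf2 -22316 bp was lower too (-1.64 ± 0.42, adjusted p = 0.0117). In this comparison strain and header date cannot be told apart, the total was 3 without BALB/cJ LPS replicate 2, and a fit with the replicate number as a block called 15 in all.

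No peak of the 10 genes passed the test of a strain difference in the LPS response itself: edgeR called 0 of 197, DESeq2 also called 0, and 0.145% of all peaks were called in either direction. At an unadjusted p under 0.05 there were 13 of 197, against 7485 of 95050 over all peaks. Of the 13, 10 had the higher log2 response in C57BL/6J. The directions of the 7485 were not counted. Of all peaks called, 103 had the higher log2 response in C57BL/6J and 35 the lower. C57BL/6J LPS replicate 1, with its weaker response, is part of this comparison. A higher log2 response can be a weaker fall, as at Egr1 +180 bp and Nr4a1 -14061 bp, or a stronger rise, as at Ier3 -8303 bp. The smallest adjusted p was 0.326. Among the other immediate early genes, 2 peaks were called, Ppp1r15a +2797 bp and Trib1 -136907 bp.

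In the hybrid, most matched rises of these genes in the inbred strains were called and most matched falls were not. All tags of each animal were counted against the reference genome, at 6784424 to 25903280 tags in peaks per animal, and 53 of 396 peaks of the 10 genes were called higher under LPS, against 16.3% of all peaks, and 48 lower, against 10.7%. The median log2 ratio of these 396 peaks was -0.23, against -0.07 over all peaks. Within 1 kb of the start 7.14% were lower, against 9.01% of all peaks at that distance. At 1 to 10 kb 16.7% were lower, against 9.85%, and 5.80% were higher, against 14.7%. The median there was -0.71, against -0.18. Beyond 10 kb 10.0% were lower, against 11.6%. Of the peaks called higher in C57BL/6J, 15 could be matched to a hybrid peak by 50% or more of their length, and 15 were called higher in the hybrid. For BALB/cJ the count was 20 of 22. Of the peaks called lower in C57BL/6J, 22 were matched and 4 were called lower, with 16 of the same sign, and for BALB/cJ 28 were matched, 3 were called and 22 had the same sign. None was called in the opposite direction. Only peaks of the 10 genes were matched, so whether falls at other genes were called as seldom in the hybrid was not tested.

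Klf6 had 26 of the 53 rises in the hybrid and Egr3 had 11. At the hybrid peak matched to Klf6 +305796 bp, the normalised counts of all tags were 3.98, 4.40, 0 and 14.4 in the 4 controls and 87.6, 80.5, 71.5, 101 and 64.5 in the 5 LPS animals (4.05 ± 0.46, adjusted p = 1.20e-08). All LPS animals were above all controls. The match of Egr3 -82468 bp rose as well (3.04 ± 0.39, adjusted p = 1.53e-07), as did that of Ier3 -22568 bp (2.10 ± 0.20, adjusted p = 3.95e-10). Egr1 -3033 bp, which was not called under LPS in either inbred strain (0.51 ± 0.36, adjusted p = 0.318 for C57BL/6J, and 0.90 ± 0.44, adjusted p = 0.118 for BALB/cJ), rose in the hybrid from 36.4 ± 7.24 (SD, n = 4) to 183 ± 37.3 (n = 5) (2.35 ± 0.24, adjusted p = 8.38e-10).

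Of the 10 promoter peaks, 8 were matched and tested in the hybrid, Egr1 and Ier2 having no match, and 0 of the 8 were called on all tags, with 5 log2 ratios above 0 and 3 below. The peak matched to the Nr4a1 promoter held 766 ± 122 (SD, n = 4) in controls and 1015 ± 83.5 (n = 5) under LPS (0.40 ± 0.15, adjusted p = 0.0301), and that of Btg2 held 874 ± 166 and 1137 ± 151 (0.38 ± 0.15, adjusted p = 0.0506). Klf2 (0.45 ± 0.15, adjusted p = 0.0149), Ier3 (0.89 ± 0.16, adjusted p = 3.39e-05) and Egr3 (0.10 ± 0.15, adjusted p = 0.628) were also above 0. Egr2 (-0.20 ± 0.21, adjusted p = 0.466), Nr4a3 (-0.33 ± 0.15, adjusted p = 0.0809) and Klf6 (-0.15 ± 0.14, adjusted p = 0.401) were below 0. On variant tags alone the Klf2 promoter had the opposite sign (-0.39 ± 0.21, adjusted p = 0.145). Within 1 kb, 1 other peak was called higher, Ier3 -580 bp, and 2 were called lower, Klf2 +567 bp and Nr4a1 +993 bp. Among the genes with falls, Nr4a3 had 13 of 27 hybrid peaks called lower, Btg2 10 of 38 and Nr4a1 8 of 41, while Klf6 had 2 of 69 and Ier3 0 of 18. The hybrid and inbred tables hold separately called peaks and were normalised separately, so levels were not compared between them.

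**Figure D4:**
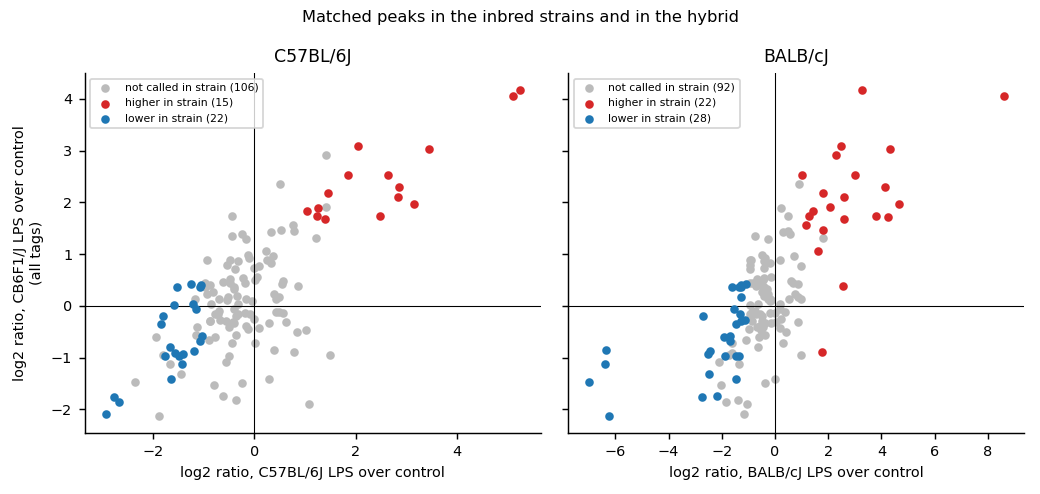
Log2 ratio of LPS over control in the CB6F1/J hybrid (all tags, vertical axes) against the same ratio in C57BL/6J or BALB/cJ (horizontal axes) for matched peaks of the 10 genes. Red peaks, called higher in the inbred strain, lie above 0 in the hybrid at 15 of 15 (C57BL/6J) and 21 of 22 (BALB/cJ), whereas blue peaks, called lower, scatter on both sides of 0.

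Only tags over a sequence difference of the parents can be given to an allele, and they were few, at 262902 to 573430 per allele and animal. On the sum of both alleles, 46 of the 398 peaks had enough tags to test, all of them of Ier2, Ier3, Nr4a1 and Klf2. Of these, 2 were called higher under LPS, against 14.4% of all peaks, and 12 lower, against 11.8%. The Ier3 peak matched to -7835 bp held 5.98, 8.20, 10.01 and 19.4 in controls and 72.9, 96.2, 58.0, 83.8 and 81.3 under LPS (2.84 ± 0.39, adjusted p = 2.10e-11), and the Nr4a1 peak matched to -14061 bp held 210.3, 189.9, 120.1 and 210.4 in controls and 63.1, 47.2, 41.1, 41.1 and 41.1 under LPS (-1.96 ± 0.25, adjusted p = 1.13e-13). At both the groups did not overlap. On all tags the same peaks had log2 ratios of 2.54 ± 0.19 (adjusted p = 2.36e-12) and -0.86 ± 0.21 (adjusted p = 0.00131). Of the 12 lower peaks, 3 were also called lower on all tags, and of the 2 higher peaks, 1 was called higher. The sign differed between the 2 counts at 10 of the 46 peaks, 1 of them called on variant tags, Klf2 -1031 bp (-1.07 ± 0.38, adjusted p = 0.0223 on variant tags and 0.36 ± 0.31, adjusted p = 0.391 on all tags). The Klf2 peak matched to -23224 bp shows how the counts part: its variant tags were 33.9, 26.0, 41.3 and 48.0 in controls and 0 in all 5 LPS animals, while all tags held 499.7 ± 67.3 (SD, n = 4) in controls and 447 ± 32.4 (n = 5) under LPS. Over all peaks with a mean above 10 variant tags in controls, 418 of 14956 (2.80%) had 0 in every LPS animal, with a median log2 ratio of 0.09 on all tags, and in the reverse direction there were 93 of 14915 (0.624%). The cause was not tested.

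Allelic balance could be tested at 10 peaks in control animals and 5 under LPS, and no peak passed both thresholds in either. In controls, edgeR called 0 of 10 (5.95% of all peaks were higher on the C57BL/6J allele and 5.57% lower), with 1 at an unadjusted p under 0.05, and DESeq2 called 0. Under LPS it called 0 of 5 (8.60% and 6.80% of all peaks), with 0 at an unadjusted p under 0.05, and DESeq2 called 0. In controls the Nr4a1 peak matched to -14061 bp had the lowest adjusted p of the 10. Its C57BL/6J allele held 121, 107, 88.3 and 140.3 and its BALB/cJ allele 91.6, 77.3, 26.0 and 63.0 in the 4 controls. The C57BL/6J allele was higher in 4 of 4 animals, by a log2 ratio of 0.90 ± 0.25 (adjusted p = 0.037), which is under the fold threshold. Under LPS the alleles held 34.6, 24.8, 27.0, 24.2 and 26.3 for C57BL/6J and 32.5, 24.3, 13.8, 18.6 and 12.02 for BALB/cJ, the first higher in 5 of 5 (0.48 ± 0.25, adjusted p = 0.236). The same peak had the higher count in C57BL/6J among the inbred strains under LPS, as given above.

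Under LPS the lowest adjusted p of the 5 was at the Ier3 peak matched to -7835 bp, which was higher on the C57BL/6J allele in 5 of 5 animals (0.56 ± 0.25, adjusted p = 0.162). The Klf2 promoter had log2 allele ratios of 0.35 ± 0.17 (adjusted p = 0.24) in controls and 0.04 ± 0.15 (adjusted p = 0.892) under LPS, and the Nr4a1 peak at -20373 bp of the hybrid table had -0.07 ± 0.10 (adjusted p = 0.743) and -0.03 ± 0.09 (adjusted p = 0.85). For the allele difference in the LPS response, edgeR and DESeq2 each called 0 of 31 peaks, 2 of them at an unadjusted p under 0.05, and 0% of all 18218 peaks were called. The 2 hybrid matches of the Ier2 peak at +95168 bp and Klf2 peak at +31881 bp had too few variant tags to test, so allelic balance was not detectable at this depth at either.

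**Figure D5:**
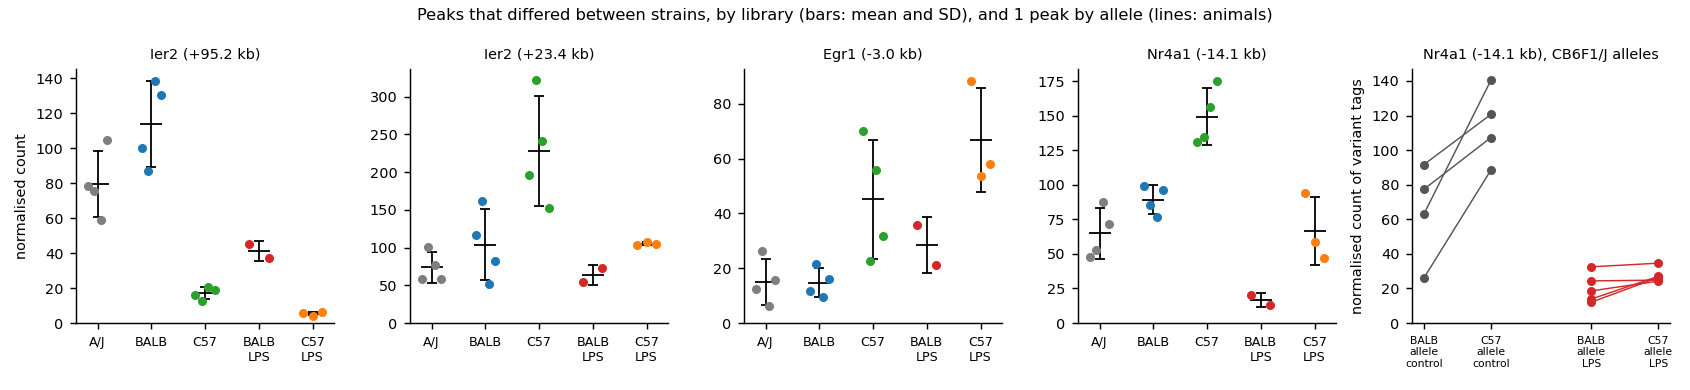
Normalised ATAC-seq counts (vertical axes, from 0) at 4 peaks that differed between strains, in the 17 inbred libraries (points, with bars for mean and SD), and, at the right, normalised counts of variant tags on the 2 alleles of the Nr4a1 peak in each CB6F1/J animal (lines join the alleles of 1 animal). The Ier2 peak at +95168 bp is lowest in C57BL/6J in control and LPS animals, and the C57BL/6J allele of the Nr4a1 peak is the higher in 4 of 4 control and 5 of 5 LPS animals.

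Within the controls, 2 of the 4 animals of each strain had higher counts over several gene bodies. Replicates 1 and 2 were above replicates 3 and 4 in all 3 strains at 13 of the 201 peaks (6.47%), against 2.89% of all peaks and 10.6% of the peaks of the other immediate early genes. They were 3 Egr1 peaks, at +180, +2221 and +4140 bp, 3 Nr4a1 peaks, at +790, +1827 and +2419 bp, 2 Egr3 peaks and 1 each of Ier2, Ier3, Nr4a3, Btg2 and Klf6. At Nr4a1 +1827 bp the A/J controls held 81.7, 55.8, 16.3 and 1.56, the BALB/cJ controls 9.23, 29.2, 0 and 5.62 and the C57BL/6J controls 23.2, 46.5, 6.50 and 5.32. In each strain the first and second of these values were the highest, and what the replicate numbers mark is not given in the sources used here.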

How the data were processed

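ATAC-seq reads of sorted Kupffer cells were trimmed to 30 bp per the methods. The headers name this step for the control and hybrid libraries, and not for the inbred LPS libraries. Per the methods, Bowtie2 aligned C57BL/6J reads to mm10, A/J and BALB/cJ reads to genomes of their strain, and CB6F1/J reads to both mm10 and the BALB/cJ genome. Reads on the A/J or BALB/cJ genome were shifted to mm10 coordinates with MMARGE. The headers also name a shift for the C57BL/6J LPS libraries, and not for the C57BL/6J controls. Reproducible peaks were merged with HOMER, and raw tags were counted in windows of 1000 bp. FastQC and DESeq2 are also named in the processing notes, and versions are not given in the sources used here. The deposited table of the inbred strains holds whole counts per peak for the LPS libraries and expected counts for the controls, and the deposited hybrid table holds expected counts. Expected counts include 0.5 of a tag and were rounded up, which in the inbred table touches the controls alone. Of the hybrid columns of per-sample values, 27 were not used. The deposited peak lists of single libraries hold a signal scaled to depth, of which only the header totals were read.

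Peaks on chromosomes 1 to 19, X and Y (96238 of 96381) and autosomal hybrid peaks (213225 of 217456) were kept. Normalised counts are counts over the effective library size (TMM) relative to the geometric mean of these sizes. Tests were edgeR 4.0.16 quasi-likelihood tests in R 4.3.3 with 1 coefficient per group over all inbred groups, and with animal as a block for alleles. Peaks needed a mean normalised count of 16 (strain and allele comparisons) or 4 (LPS comparisons) in the groups compared, and a call needed an adjusted p under 0.05 and an absolute log2 ratio over 1. DESeq2 1.42.0, other minimum counts, total counts, thinning, a replicate block and leaving out each library were the alternatives. The fits were tested on simulated data. Sequences, some of which are not reported here, were read with samtools 1.23.1. Depth in peaks was 2079334 to 7536816 tags per inbred library and 47196703 in BALB/cJ control replicate 4. Replicates are animals numbered by the labels, and p-values measure only the spread between these samples.

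Genes, lists and tests were chosen with earlier results of these data known. Peaks named in the text were the promoter peak of each gene (the highest mean within 1 kb), the called peak with the largest log2 ratio each way for each gene and comparison, and further called peaks chosen after their values were seen.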

Additional observations from a re-analysis of the deposited data

Results flagged for a closer look

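Among 92 groups of 4 or 5 libraries at 31 of the named peaks, 6 held a single library whose distance to the nearest other library took up most of the group's range, and chance alone gives this in about 1 of 20 groups. The Klf2 peak at -22316 bp held 9.39 normalised counts in A/J control replicate 4, against 6.56 in the nearest of the others. The Egr1 peak at -6560 bp held 14.8 (14.77) in BALB/cJ control replicate 3, and the nearest other BALB/cJ control held 2.93. That peak was called higher under LPS in BALB/cJ.

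The other 4 were peaks at 0 in all libraries of the group but 1, so each rests on a few tags. The Klf6 peak at +241003 bp held 0.580 (0.5797) in C57BL/6J control replicate 1, and the same library held 0.580 (0.5797) at the Klf6 peak at +305796 bp. A/J control replicate 2 held 1.09 (1.094) at the Klf6 peak at +305796 bp. C57BL/6J control replicate 3 held 1.30 (1.301) at the Ier2 peak at +108253 bp.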

How the results depend on the processing

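Counts of called peaks changed by more than 1.5 times under these settings. A higher minimum count gave 4 (in place of 7) for C57BL/6J against BALB/cJ controls, 2 (in place of 4) for A/J against BALB/cJ and 3 (in place of 7) for A/J against C57BL/6J, and thinning to the smallest library gave 4, 2 and 3. With no minimum count the first was 11. For LPS, a minimum of 16 gave 32 (in place of 50) in C57BL/6J, 43 (in place of 68) in BALB/cJ and 8 (in place of 14) on the variant tags of CB6F1/J, where all tags over every autosomal peak, an alternative chosen after seeing the data, gave 101. Fewer peaks are tested at a higher minimum.

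Leaving out 1 library gave 4 to 11 calls for C57BL/6J against BALB/cJ controls, 2 to 9 for A/J against BALB/cJ, 5 to 7 for A/J against C57BL/6J, 24 to 61 for LPS in C57BL/6J, 46 to 67 in BALB/cJ, 3 to 8 between strains under LPS, 12 to 20 for LPS on variant tags, 0 to 1 for alleles in controls, and 0 to 0 for alleles under LPS and for both differences in response. BALB/cJ control replicate 2 (11 and 9 without it) and replicate 3 (4 and 2), C57BL/6J LPS replicate 3 (24), BALB/cJ LPS replicate 2 (3) and CB6F1/J control replicates 1 and 2 (1 call each) moved counts most. Where 1 BALB/cJ LPS library was left, it was assumed to vary like the other groups.

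With the replicate number as a block, the comparison of strains under LPS gave 15 in place of 7. Deviations from the group means of same-numbered controls correlated at 0.054 to 0.375 between strains, all above 0, and those of controls and LPS animals of a strain at -0.097 to 0.090 (hybrid -0.020 to 0.013). No pair of groups with 3 or more numbers had every correlation over 0.1, the level set for a pairing, and not every sample correlated best with its own number. The other blocked counts were 9, 6 and 7 between control strains, 56 and 74 for LPS, 0 for the difference in response and 12 on variant tags. Total counts in place of TMM moved the median log2 ratio of all peaks under LPS from -0.03 to 0.07 in C57BL/6J and from -0.07 to 0.06 in BALB/cJ, and gave 18 higher and 24 lower in the former. On all tags, the hybrid response had the opposite sign to that on variant tags at 10 of 46 peaks. Values of 0.5 tags rounded down gave 28 lower in place of 32 in C57BL/6J. Over 116 pairs of a named peak and a comparison, 1648 of 1739 alternatives kept direction and side of the threshold, 80 lost the call and 11 gained one. With 2 or 3 LPS animals, small differences and peaks with few tags were not detectable.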
